A study of Mus musculus with 2 samples.

Results

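The 10 immediate early response genes Fos, Fosb, Junb, Egr1, Klf10, Ier2, Arc, Nr4a1, Dusp1 and Atf3 were read among 17097 genes on a pair of Affymetrix expression arrays of mouse embryonic stem (ES) cells. A probe set was taken for a gene where the platform annotation gave that gene as its only symbol, and each of the 10 had exactly 1 probe set. The genes were chosen from earlier results of the same arrays, in which the difference between the arrays had been seen, so every difference below is a description and none is evidence for the choice. The cells were labelled as C57BL/6 ES cells, grown without feeders in serum and leukaemia inhibitory factor, infected with a lentivirus, as the labels call it, carrying a scrambled hairpin (control KD) or a hairpin against Tet2 (TET2 KD), and kept in puromycin, which for the Tet2 hairpin lasted 72 h. Tet2 is a dioxygenase that oxidises 5-methylcytosine in DNA. The hairpins were driven by the U6 promoter in pMSCV-puro, a vector that also carries puromycin resistance. Each group had 1 array, so no difference carries an error or a test, and this number sets the precision. Tet2 itself read 5.48 on the log2 scale in control KD and 5.22 in TET2 KD by 1 probe set, and 5.62 and 5.57 by the other. It did not separate the arrays as labelled, so they are named by their labels alone and no difference here can be assigned to its loss. Every value is given under the gene name the annotation pairs with its probe set. Whether names and values match across the table could not be checked here, and some genes known to mark ES cells lay at background while some of the brain and pituitary were high, with values at the end.

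Immediate early genes are transcribed within minutes of a stimulus such as serum, a growth factor, depolarisation or stress, without new protein synthesis. Kinase cascades phosphorylate transcription factors already bound at their promoters, chiefly serum response factor with its ETS partners and CREB at the cAMP response element. Most of their mRNAs are short-lived, and many encode transcription factors, so that their levels follow the recent history of a cell, including how it was handled.

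The genes fell into separate groups as measured. Fosb, Nr4a1, Arc, Fos and Klf10 were higher in the array labelled TET2 KD, by 2.53-fold to 4.19-fold as measured. Ier2, Dusp1, Junb, Egr1 and Atf3 differed by between -0.14 and 0.07 on the log2 scale. No measured difference lay between 0.07 and 1.34, a gap of 1.27, and no gene was lower by 2-fold. With values under the floor set to it (the floor is given below), Arc (0.86) and Nr4a1 (0.88) lay within this gap. Of the 10 genes, 8 were at or above the floor of 2.55, the median of all values, on both arrays, and 3 of those 8 (Fosb, Fos and Klf10) were 2-fold or more higher. With Arc (1.85 and 3.42), whose mean reached the floor only through the array labelled TET2 KD, the count was 4 of 9 as measured. With values under the floor set to it, Arc was short of 2-fold and the count was 3 of 9. Over all 11174 genes whose mean reached the floor, 1.17% were 2-fold or more higher and 1.41% lower, a background printed for scale only, since the same difference was in view when the genes were chosen.

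**Figure D1:**
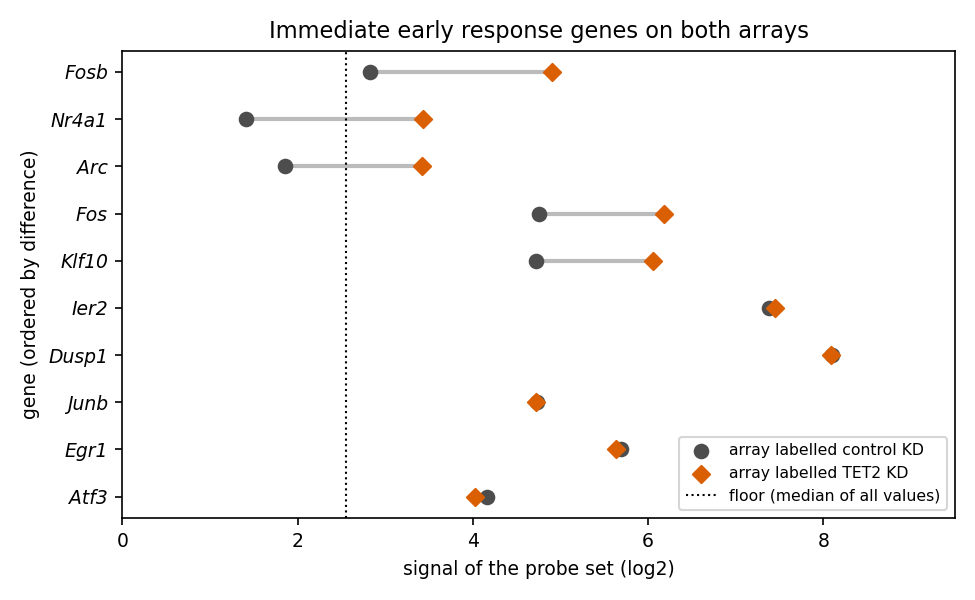
Signal of the probe set of each immediate early response gene (log2, horizontal axis) on the array labelled control KD (circles) and the array labelled TET2 KD (diamonds), with genes ordered by the difference and the floor of 2.55 as a dotted line. The upper 5 genes are apart by 1.34 or more, with Nr4a1 and Arc starting under the floor, and the symbols of the lower 5 nearly coincide.

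What the genes share beyond the choice was looked for in the sequence before their transcription starts. RefSeq promoters (build GRCm38.p6) were at hand for 6 of the 10, namely Fos, Fosb, Nr4a1, Dusp1, Junb and Atf3; Egr1, Klf10, Ier2 and Arc had no entry. The last 150 bases before the start are printed, 5′ to 3′ on the strand of the gene, for the 3 genes of the higher group with an entry and for Dusp1, the gene among the 6 with the full cAMP response element. Capitals mark the core of the cAMP response element (TGACG, or CGTCA where it lies on the other strand), the full element (TGACGTCA), the EGR site (GCGNGGGCG, either strand) and the TATA box (TATAAA).
Fos: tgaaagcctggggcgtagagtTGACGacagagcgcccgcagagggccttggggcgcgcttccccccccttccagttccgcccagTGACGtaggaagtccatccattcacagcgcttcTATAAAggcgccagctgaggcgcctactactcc
Fosb: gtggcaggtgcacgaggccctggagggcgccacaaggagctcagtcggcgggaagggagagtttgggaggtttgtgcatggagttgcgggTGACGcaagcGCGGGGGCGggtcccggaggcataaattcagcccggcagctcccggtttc
Nr4a1: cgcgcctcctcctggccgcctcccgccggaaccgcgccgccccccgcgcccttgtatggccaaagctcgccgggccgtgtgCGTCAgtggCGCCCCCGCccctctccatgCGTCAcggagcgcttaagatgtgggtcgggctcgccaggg
Dusp1: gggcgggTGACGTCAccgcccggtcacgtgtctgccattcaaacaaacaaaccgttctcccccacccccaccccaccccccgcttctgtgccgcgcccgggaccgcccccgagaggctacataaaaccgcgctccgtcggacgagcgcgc
These stretches lie at chr12:85473740-85473889 (plus strand) for Fos, chr7:19310046-19310195 (minus) for Fosb, chr15:101266696-101266845 (plus) for Nr4a1 and chr17:26508473-26508622 (minus) for Dusp1.

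The core TGACG was in the 250 bases before the start of all 6 genes, beside 17.8% of 32851 promoters of the same length. It was in the 3 genes that were higher and in the 3 that were not, so it did not separate them. Fos held it at 129 and 66 bases before the start, Fosb at 60, Junb at 106 and Atf3 at 7, and Nr4a1 held 4 copies. The full element, which contains the core on both strands, was found in Dusp1 at 143 bases before the start, beside 1.55% of all promoters. The EGR site, bound by Egr1 and its relatives, was found in Fosb and Nr4a1, beside 4.70% of all promoters. It was absent from Fos, which was higher as well, and from Dusp1, Junb and Atf3. Motifs were chosen after values were seen, so the matches are no evidence of a link to the higher group. The TATA box was found in Fos alone of the 6 (12.4% of all), and the ETS site CCGGAA in Nr4a1 (12.0%). The CArG box, bound by serum response factor, and the AP-1 site TGANTCA were in none of the 6, beside 1.47% and 6.75% of all promoters; the serum response element of Fos is known to lie further upstream than this window. The 6 promoters were rich in G and C, at 58.4% to 74.4% beside a median of 52.4%, with 15 to 34 CpG steps beside a median of 6, and the part of this composition in the matches was not tested.

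**Figure D2:**
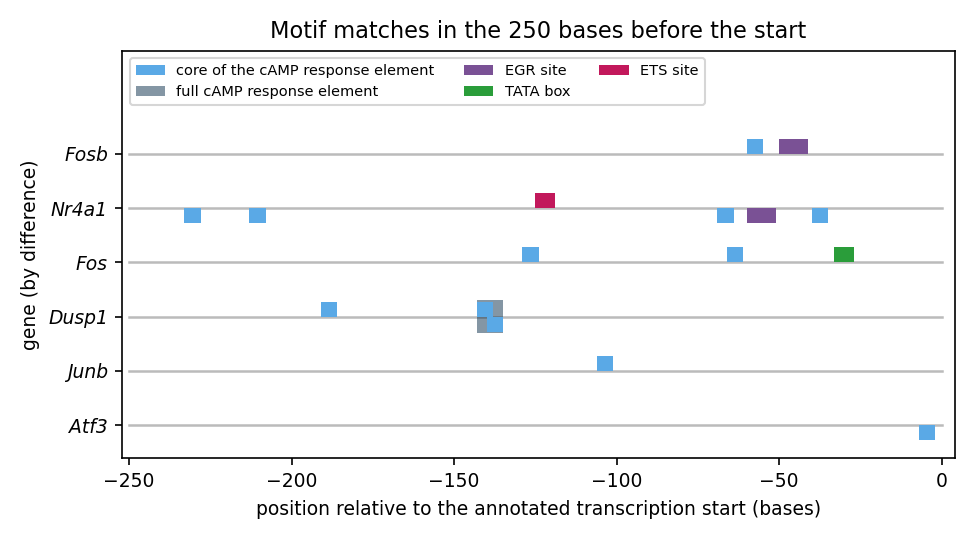
Motif matches in the 250 bases before the annotated start (horizontal axis, bases) of the 6 genes with a RefSeq promoter, ordered by the difference between the arrays; boxes above a line are on the strand of the gene, boxes below it on the other strand, and the box across the line is the full cAMP response element. The core is in all 6, and the EGR site in Fosb and Nr4a1.

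Among the transcription factors that join into AP-1, both Fos genes were higher and Junb was not. In what follows, pairs of log2 values are given with control KD first. Fos, the founding member of the family, read 4.76 and 6.18, a difference of 1.42 or 2.68-fold. Fosb, a paralog of Fos with the same kind of basic leucine zipper, read 2.83 and 4.90, a difference of 2.07 or 4.19-fold, the largest of the 10. Its control value lay only 0.28 above the floor, whereas that of Fos lay 2.20 above it. Junb, a Jun family partner of both, read 4.74 and 4.72. A probe set of Ap2a1, an unrelated adaptor subunit, has exactly the same deposited values as Junb on both arrays, and Plpbp and Gpr26 have the control value of Fosb, so whether these values belong to the named genes could not be checked. Atf3, a stress-induced factor that can also join Jun proteins, read 4.16 and 4.02, the most negative difference of the 10 at -0.14.

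Ranked by difference among the 11174 genes at or above the floor, Fosb was at place 22 from the top and Fos at 71. The genes within 0.5 of the mean level of Fosb included 19 of 1810 (1.05%) that were 2-fold or more higher, and those around Fos 21 of 2425 (0.866%). These shares describe how often such a difference occurred at those levels on this pair of arrays, and hold no replicate error.

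Of the zinc finger factors, Klf10 was higher and Egr1 was not. Klf10, a Krüppel-like repressor first described as induced by TGF-beta, read 4.72 and 6.06, a difference of 1.34 or 2.53-fold, at place 79. Egr1, which is commonly induced along with Fos through serum response factor, read 5.69 and 5.63, a difference of -0.05. Their control values lay 2.16 (Klf10) and 3.13 (Egr1) above the floor, clear of background.

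Nr4a1 and Arc started from background. Nr4a1, an orphan nuclear receptor, read 1.41 and 3.43, a difference of 2.02 as measured, but its control value was under the floor and its mean, 2.42, as well. Against the floor it was at least 1.83-fold higher. Arc, a protein of the neuronal cytoskeleton and synapse, read 1.85 and 3.42, a difference of 1.57 as measured and at least 1.82-fold against the floor. Both genes reached the floor in TET2 KD alone, so the arrays do not fix the fold, and both bounds are short of 2-fold.

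Dusp1 and Ier2, the remaining genes, were nearly equal on both arrays. Dusp1, a phosphatase that switches off the kinases upstream of these genes, read 8.09 and 8.09, a difference of -0.0044. Ier2, a small nuclear regulator of transcription, read 7.38 and 7.45, a difference of 0.07. The robust SD of the difference over all genes at or above the floor was 0.146, and the 5 genes that were not higher lay within it.

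**Figure D3:**
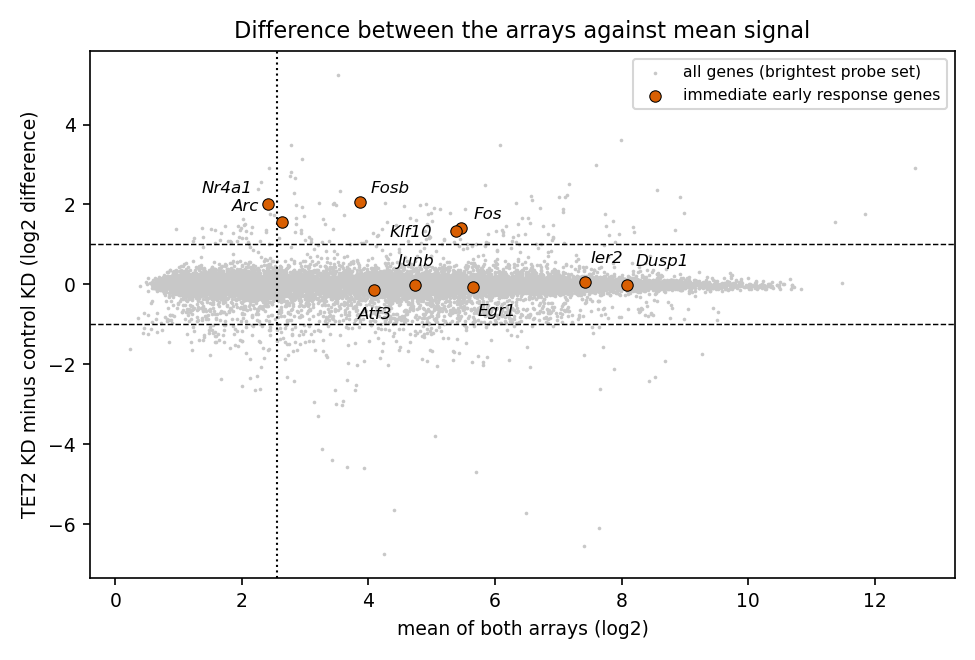
Difference between the arrays (TET2 KD minus control KD, log2) against the mean of both (log2) for 17097 genes (grey) and the 10 immediate early response genes (orange); dashed lines mark 2-fold in each direction and the dotted line the floor of 2.55. Fosb, Nr4a1, Arc, Fos and Klf10 lie above the upper dashed line and the other 5 on the bulk of all genes.

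The genes are short, as immediate early genes are known to be. Their spans in the RefSeq annotation ran from 1.52 kb for Ier2 to 20.9 kb for Nr4a1, with a median of 3.62 kb, beside a median of 24.4 kb over 10851 genes at or above the floor with a span. Short and longer genes were in both groups: Fos (3.39 kb), Arc (3.49 kb), Fosb (7.42 kb), Klf10 (9.25 kb) and Nr4a1 were in the higher group, while Ier2, Junb (1.84 kb), Dusp1 (2.88 kb), Egr1 (3.75 kb) and Atf3 (13.0 kb) were not.

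A further list of immediate early genes, written with earlier results of these arrays known, showed no common direction. Of 54 measured, 45 were at or above the floor. Of these, 2 were higher and 2 lower by 2-fold or more, beside 1.17% higher and 1.41% lower of all genes. The 45 had a median difference of 0.08, and 28 of them were above 0. The 9 of the 10 genes above that reached the floor had a median of 0.07, and all genes one of -0.01. Higher were Klf4, a pluripotency factor that serum also induces, at 5.87 and 6.88, and Id3, an inhibitor of helix-loop-helix factors, at 2.44 and 3.55. Id3 was under the floor in control KD and at least 2.00-fold higher. Lower were Sgk1, a serum- and glucocorticoid-regulated kinase, at 8.15 and 6.93, and Nr4a3, a nuclear receptor, at 5.01 and 3.81. Several probe sets of a gene did not always go together: the other probe set of Klf4 differed by 0.51, and those of Nr4a3 by 0.13 and 0.14.

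Close relatives of the 10 genes did not always go with them, and other genes of the further list are given beside them. In the NR4A family, Nr4a2 read 6.46 and 6.49, and its 5 probe sets differed by -0.02 to 0.09. Nr4a1, with its mean under the floor, and the brightest probe set of Nr4a3 were apart in opposite directions. The other probe sets of Nr4a3 differed by 0.13 and 0.14, upward like Nr4a1. Among EGR genes, Egr2 read 1.36 and 2.55, neither reaching the floor, and its 2 probe sets differed by 1.19 and 1.28. Egr3 read 2.72 and 2.89. In the Fos family Fosl2 read 3.98 and 3.78, and Fosl1 2.30 and 2.42, under the floor. Jun read 5.77 and 6.23 in its brightest probe set and differed by -0.09 in the other, and Jund read 7.75 and 7.61. Ier3 (6.06 and 5.73) and Ier5 (3.43 and 3.94) differed in opposite directions, both short of 2-fold. Gadd45b, a stress-response gene, read 5.10 and 6.00. Npas4, a factor of active neurons, read 1.54 and 0.67, at background.

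Regulators of these genes gave counts near those of all genes, of which 1.17% were higher and 1.41% lower, shares that leave under 1 gene expected in lists this short. Among factors of the AP-1 and CREB zipper families, 0 of 12 at or above the floor were past 2-fold in either direction, with Jun (0.45), Mafk (-0.36) and Batf3 (0.33) farthest apart. Srf, the serum response factor, read 4.57 and 4.69. Of the 4 genes of its list at or above the floor none was past 2-fold. Elk3, an ETS partner, differed by -0.95 in its brightest probe set, though its 3 probe sets averaged -0.31. Mrtfb, a coactivator of serum response factor, differed by 0.11 in its brightest and by -1.03 in another of its 3. None of 8 CREB coactivators and kinases was past 2-fold in its brightest probe set, and 1 of the 8, Camk2d at 0.05, was above 0. Another of the 4 probe sets of Camk2d differed by -1.61, and the 4 averaged -0.45. Camk4, a calcium-dependent kinase, differed by -0.47 (-0.18 over its 4 probe sets), Rps6ka5, a kinase of CREB and histone H3, by -0.27 (-0.38 over 3), and the coactivator Crebbp by -0.13.

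Upstream kinases, feedback inhibitors and decay factors gave 1 gene past 2-fold by its brightest probe set. None of 13 genes of the ERK, JNK and p38 cascade was, with Map2k2, a kinase in its middle tier, at -0.69, Map2k4 at -0.26 and Nras at 0.22. Other probe sets of these went the opposite way, and the averages were -0.31, -0.05 and -0.06. Map2k3 differed by 0.10 in its brightest probe set, but by 1.15 in the other, whose mean was under the floor. Of 15 feedback phosphatases and inhibitors, Spry1, an inhibitor of growth factor signalling, was higher at 5.42 and 6.79. Spred1 differed by -0.95, although the mean of its 5 probe sets was -0.02, and Dusp14 by 0.86. Dusp6, a MAP kinase phosphatase, read 6.71 and 6.64. Among 13 decay factors of short-lived mRNAs none was past 2-fold, with Btg2 at 0.45, Zfp36l2 at -0.38 and Tob2 at 0.31. Cnot7 differed by -0.01 in its brightest probe set, but by 1.05 in another of its 3.

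**Figure D4:**
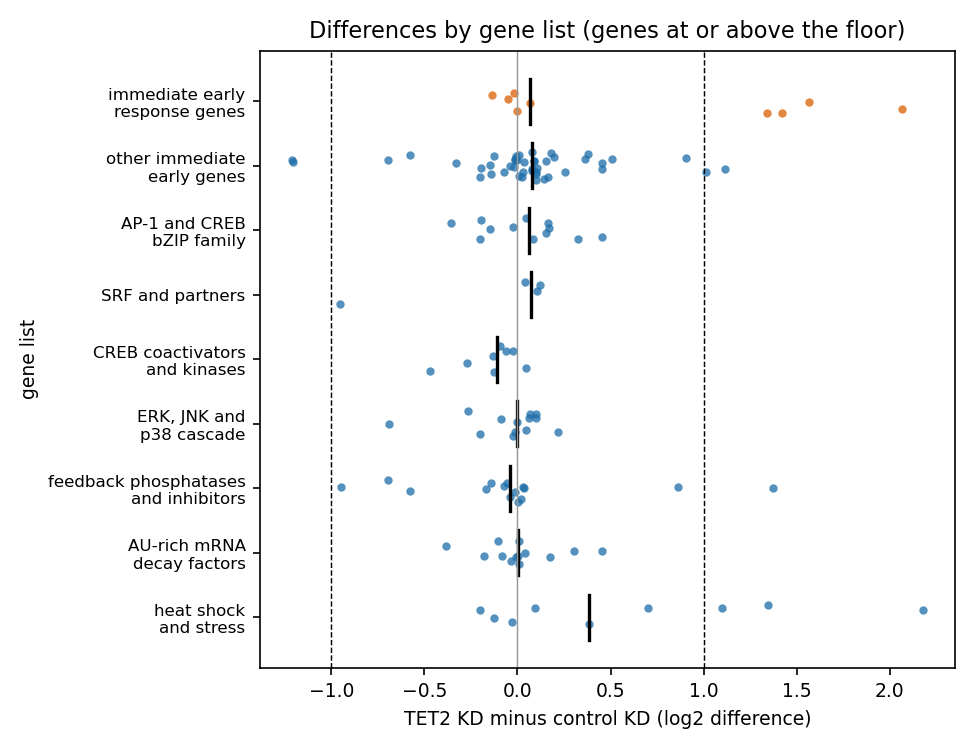
Difference between the arrays (TET2 KD minus control KD, log2, horizontal axis) for each gene at or above the floor in 9 gene lists; black bars are medians and dashed lines mark 2-fold. The immediate early response genes (orange) leave a gap between 0.07 and 1.34 as measured. The medians of all lists but heat shock and stress (0.39) lie between -0.11 and 0.08.

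With 2 arrays, likeness to Fos or Fosb can only mean a similar pair of values, measured as the distance between pairs on the log2 scale. It is no comparison of abundance, since probe sets differ in brightness. Closest to Fos were Sgk3 (4.81 and 6.18, distance 0.056), Klf10 (distance 0.12) and Opalin (4.88 and 6.01, distance 0.21). The other probe set of Opalin, under the floor by its mean, differed by -0.33. Closest to Fosb were Mfap5 (2.74 and 4.48, distance 0.43), Wrn (2.38 and 4.72, 0.48) and Xlr4b (2.49 and 4.47, 0.54). Wrn and Xlr4b were under the floor in control KD and reached it by mean through TET2 KD alone.

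Other properties of the arrays bear on these readings. Some genes of heat shock and stress also differed. At or above the floor, 3 of 9 were 2-fold or more higher, beside 1.17% of all genes. They were Hspa1b by 2.18, Hspb1 by 1.34 (0.78 over its 4 probe sets, short of 2-fold) and Hmox1 by 1.10. Of the 9, 6 were above 0, while Dnajb1 (-0.20, but 0.27 over its 2 probe sets), Bag3 (-0.13) and Ddit3 (-0.03) were not. Gadd45a, whose mean was under the floor, read 2.03 and 0.40. The summed linear signal of the 10 measured was 2231 and 2920. Pituitary and olfactory or airway markers at or above the floor went the other way. By 2-fold or more, 4 of 4 and 6 of 6 were lower (7 and 8 were measured), beside 1.41% of all genes. Some reached the floor by mean through control KD alone, such as Fshb (5.31 and 1.21) and Bpifa1 (7.62 and 0.88). The filter therefore helped to set these counts. Under the floor, the olfactory or airway markers Omp (1.92 and 2.03 in its brightest probe set) and Scgb1a1 (1.24 and 1.12) were nearly equal. Summed signals over all measured were 3595 and 65.8 and 661 and 28.1. Cga, a pituitary hormone subunit whose mean was under the floor, differed upward, at 1.29 and 2.80. Xist, the RNA of the inactive X chromosome, read 9.34 and 3.62, and the Y-linked genes Eif2s3y (0.89 and 6.14) and Kdm5d (1.03 and 4.52) differed the opposite way. Eif2s3y averaged 3.13 over its 2 probe sets and Kdm5d 1.19 over its 3, and both reached the floor by mean through TET2 KD alone. Uty, also Y-linked, was under the floor on both arrays and nearly equal (1.29 and 1.34 in its brightest probe set). Neuronal markers were present and close on both arrays, with 9 of 11 at or above the floor and summed signals of 2988 and 3048. Of 14 ES cell markers 9 were at or above the floor, with summed signals over the 14 of 3194 and 3224. Zfp42 read 10.56 and 10.58 and Sox2 7.09 and 6.98. The other 5 were under the floor on both arrays: Pou5f1, a core factor (1.07 and 1.29), Nanog (1.01 and 0.97), Lin28a, Tfcp2l1 and Dnmt3l. Esrrb (3.03 and 2.98) and Dppa5a (2.64 and 2.56) were only just above it. At or above the floor were also 7 of 7 oligodendrocyte and 6 of 7 astrocyte markers. The part of any of these in the values of the immediate early genes was not tested, and in bulk RNA fewer cells of a type and less RNA per cell cannot be told apart. The 3′ end of the actin control exceeded its 5′ end by 1.23 and 1.11 and that of the Gapdh control by 0.40 and 0.27, both differences being slightly smaller in TET2 KD.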

How the data were processed

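Values were the authors' deposited log2 signals per probe set, 1 column per array, for which the submitters' processing notes name Affymetrix Expression Console. The sources used here give no version, summary method, background correction or scaling. The values were taken as log2, since as natural logs the brightest would exceed the scanner's range of 65535. Of 45141 probe sets, 104 were controls, 28898 had 1 gene symbol, 551 several and 15588 none. A gene was its brightest probe set by mean, the floor was set at the median value of non-control probe sets, and the threshold was 2-fold. Values under the floor gave bounds against it. Named genes were the 10 genes and the 3 most like Fos and Fosb. Of each regulator list, those past 2-fold and the 3 farthest apart were named. Relatives, markers, genes with an outlying probe set, lengths and motifs were chosen after values were seen. The genes and lists were chosen with earlier results of these data known. Alternatives changed the probe set rule, scaling, floor and threshold. The procedure was tested on simulated data. Python 3.11.15, numpy 2.4.6, pandas 2.3.3 and matplotlib 3.10.9 were used.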

Additional observations from a re-analysis of the deposited data

How the results depend on the processing

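Each of the 10 genes has 1 probe set, so the alternative probe set rules could not change its difference. Setting low values to the floor could not change genes above it on both arrays, such as Fosb, Fos and Klf10. Only the 2 rescalings could move these 3. With arrays centred on their medians they differed by 2.11, 1.46 and 1.38, and after quantile normalization by 2.10, 1.46 and 1.37, all past 2-fold. Egr1 and Atf3 stayed below 0 and Ier2 above it, whereas Dusp1 (-0.0081 to 0.037) and Junb (-0.016 to 0.026) took either sign; none of these 5 passed 2-fold. With values under the floor set to it, Arc (0.86) and Nr4a1 (0.88) were short of 2-fold, which follows from that setting. Nr4a1 has no value in the median of probe sets at or above the floor. The count of 4 became 2 of 5 when the 75th percentile was the floor, and stayed between 3 and 5 otherwise, with 0 lower throughout. The median of 0.07 was 0.70 when the 25th percentile was the floor and 0.70 without a floor, as Nr4a1 then entered. Of the further immediate early genes, 4 past 2-fold became 2 under the higher floor, 2 in the mean of all probe sets of a gene and 2 in the median of the probe sets at or above the floor. At 1.5-fold the 4 stayed 4 of 9. No paired analysis was possible because each group has 1 array. Signal near background limits Nr4a1, Arc and Fosb most.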
